A study of Homo sapiens with 12 samples.

Results

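The 30 genes described here encode enzymes of cholesterol and fatty acid synthesis and the proteins that control them. They were taken by symbol from the deposited count table, in which they are 30 of 59542 gene rows, and fall into 3 sets: 18 enzymes of sterol synthesis, 5 genes of sterol control and transport (INSIG1, SREBF1, SREBF2, SCAP and STARD4) and 7 genes of fatty acid synthesis (FASN, SCD, ACACA, FADS1, FADS2, ACLY and ELOVL6). All 30 passed the filter on low counts. The study sequenced poly(A) RNA of SKOV-3, an established human line of epithelial ovarian adenocarcinoma, and of SKOV-3 CDDP, its cisplatin-resistant derivative. Each line was profiled with its wild-type genotype and as a double knockout of KDM5A and KDM5B, demethylases of lysine 4 on histone H3. The 4 groups, with 3 libraries each, are called parental, parental knockout, resistant and resistant knockout below. All were grown in RPMI medium with serum. Whether the knockout lines are single clones or pools, and whether cisplatin was in the medium of the resistant cells, is not given in the sources used here. The labels do not tie replicates to separate cultures, and any p-value below rests on library-to-library spread, part of which may be technical.

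Cells make cholesterol from acetyl-CoA through mevalonate, the isoprenoid farnesyl pyrophosphate, squalene and lanosterol, and fatty acids from the same acetyl-CoA through malonyl-CoA. Both routes are controlled by SREBPs, transcription factors held in the endoplasmic reticulum by SCAP and INSIG when sterols are plentiful. When sterols fall, SCAP carries SREBPs to the Golgi, where proteases free the part that enters the nucleus. SREBP2 (SREBF2) acts mainly on sterol genes and SREBP1 (SREBF1) mainly on fatty acid genes. On their promoters SREBPs bind sterol regulatory elements, commonly beside a CCAAT box bound by NF-Y.

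Of the 30 genes, 26 matched a promoter entry in RefSeq (GRCh38.p14), each window running from 250 bases before to 50 bases after an annotated start. FDFT1, SQLE, ACAT2 and FASN had no entry. The letters of 1 classical form of the sterol regulatory element, TCACNCCAC, searched on both strands, were in the window of 1 of these 26 genes, SREBF2, against 1.39% of all 27305 gene symbols in the table. CCAAT, also searched on both strands, was in the windows of 20 of 26 genes, or 76.92%, against 39.72% of all symbols. By set it was found for 13 of 15 sterol enzymes, 3 of 5 control genes and 4 of 6 fatty acid genes. The 4 upstream sequences below are shown for SREBF2, the only gene with both motifs, and for INSIG1, SCD and MSMO1, which had the widest ranges among the resistant libraries. They are the 250 bases before the start, at chr22:41832855-41833104 for SREBF2, chr7:155297628-155297877 for INSIG1, chr10:100346983-100347232 for SCD and chr4:165327419-165327668 for MSMO1, all on the plus strand and written 5′ to 3′. Capitals mark TCACNCCAC (SREBF2 only) and CCAAT, which reads ATTGG where it lies on the other strand.
SREBF2: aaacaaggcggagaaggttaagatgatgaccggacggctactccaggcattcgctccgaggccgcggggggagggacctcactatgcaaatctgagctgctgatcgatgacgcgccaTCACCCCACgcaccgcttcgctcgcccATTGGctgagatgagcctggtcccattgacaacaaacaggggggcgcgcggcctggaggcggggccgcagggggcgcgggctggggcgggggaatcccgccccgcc
INSIG1: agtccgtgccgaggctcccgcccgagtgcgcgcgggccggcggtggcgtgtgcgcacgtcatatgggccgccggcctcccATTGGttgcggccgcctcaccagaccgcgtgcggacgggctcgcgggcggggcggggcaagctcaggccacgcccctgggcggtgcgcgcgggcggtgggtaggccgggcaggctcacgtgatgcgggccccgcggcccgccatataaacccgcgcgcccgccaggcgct
SCD: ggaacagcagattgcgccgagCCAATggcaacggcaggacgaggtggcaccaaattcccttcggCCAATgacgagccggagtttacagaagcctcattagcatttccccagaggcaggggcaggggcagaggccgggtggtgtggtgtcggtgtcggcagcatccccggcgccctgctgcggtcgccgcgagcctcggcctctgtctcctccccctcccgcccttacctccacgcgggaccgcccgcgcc
MSMO1: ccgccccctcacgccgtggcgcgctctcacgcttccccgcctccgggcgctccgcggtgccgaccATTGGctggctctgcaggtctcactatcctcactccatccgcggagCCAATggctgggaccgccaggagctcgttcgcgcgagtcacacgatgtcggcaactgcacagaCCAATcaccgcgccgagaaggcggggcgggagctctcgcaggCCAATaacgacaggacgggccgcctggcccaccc
In SREBF2 the sterol element spans bases -133 to -125 and the CCAAT box bases -106 to -102 from the start. MSMO1 holds 4 CCAAT boxes, SCD 2 and INSIG1 1. A match describes these letters only. No binding was measured in these libraries.

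The libraries held 15659352 to 19706754 counts, and 17947 genes passed the filter. KDM5A, as a check of the labels, was at 30.9, 41.5 and 39.4 CPM, the count scaled to library size, in the parental libraries and 22.5, 20.9 and 15.6 in the parental knockout, and at 39.9, 39.0 and 33.4 in the resistant and 17.6, 14.8 and 12.0 in the resistant knockout libraries. The knockout libraries thus lay below all controls in both backgrounds, by -0.92 ± 0.25 on the log2 scale in parental cells (edgeR quasi-likelihood test, Benjamini-Hochberg adjusted p = 1) and -1.34 ± 0.25 in resistant cells (edgeR adjusted p = 0.0524), neither past the threshold of 0.05. KDM5B overlapped between knockout and control in both. A frameshift allele can keep its transcript, so a knockout need not lower it. All 7 epithelial markers were at 1 CPM or more in every parental-background library and 4 to 6 of 7 in the resistant-background libraries, where CLDN3 was at 0 in 4 of 6. Their summed level was 257 to 700 CPM in the former and 1241 to 2397 CPM in the latter. The higher sum came from the keratins KRT8 (112.1 to 300.0 against 913.8 to 1774 CPM) and KRT18, while EPCAM (24.6 to 50.04 against 1.52 to 14.1 CPM), KRT19, CLDN7 and CLDN3 were lower in every resistant-background library. Fibroblast markers (6 genes, collagens among them) summed to 1.37 to 27.5 CPM in the parental and 347 to 4465 CPM in the resistant background. Most of the latter was COL1A1, a type I collagen chain, at 345 to 4372 CPM, and DCN, the proteoglycan decorin, was at 0.06 to 1.39 CPM there against 0.55 to 8.78 CPM in the parental background. Of 5 ovarian carcinoma markers (PAX8, WT1, MUC16, MSLN and FOLR1), 3 to 4 were at 1 CPM or more in the parental-background libraries. In the resistant controls 1 to 3 were, and in the resistant knockout 4 to 5. They summed to 199.9 to 724.9 CPM in the parental and 167.9 to 304.2 CPM in the resistant background. WT1 was at 0 in parental libraries 2 and 3. Of the 5 leukocyte markers 1 was at 1 CPM or more, and the 4 endothelial markers summed to at most 2.80 CPM. The part of these markers in the results below was not tested. In bulk RNA, fewer cells of a kind and less RNA per cell cannot be told apart.

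Within groups, the 30 genes tended to move together from library to library, most of all in resistant library 1. Resistant library 1 was the highest of its group for 28 of 30 genes, against 42.6% of all genes tested. In it 19 of 30 were at least 2-fold above both other libraries, against 10.7% of all genes. Parental library 3 was highest for 29 of 30 genes (35.2% of all genes) and parental library 1 lowest for 26 (31.4%). The parental knockout showed the same order, with library 3 highest for 23 (35%) and library 1 lowest for 27 (30.6%). In the resistant knockout no library was highest for more than 16. The ratio of highest to lowest library had a median over the 30 genes of 2.585 in parental, 2.762 in parental knockout, 3.212 in resistant and 1.551 in resistant knockout cells. Ribosomal protein genes took 2.81% of counts in resistant library 1 and 4.63% to 7.36% in the others, and the part of this in its high levels was not tested. Parental knockout library 3 also stood apart, with 16.3% of counts from mitochondrial genes against 5.34% to 10.7% in the other 11 libraries. Over all genes its counts differed from those of its group by chi-squares per degree of freedom of 173.5 and 221, against 142.9 and 188.4 for resistant library 1, and its part in the order of the parental knockout libraries was not tested. Because resistant library 1 bears on most comparisons, results that rest on it are given with and without it.

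**Figure D1:**
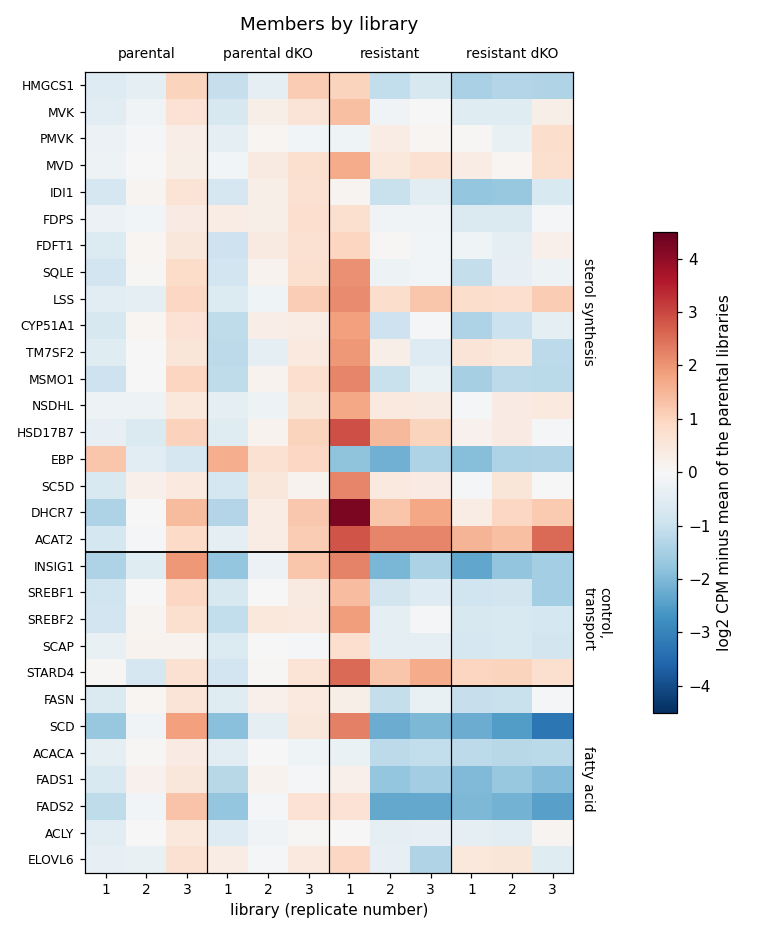
Each row is a gene and each column a library, and colour gives log2 CPM minus the mean of the 3 parental libraries. Resistant library 1 is red for most sterol genes and all control genes, while resistant libraries 2 and 3 and the resistant knockout are blue for most fatty acid genes.

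In the parental and resistant controls SCD and INSIG1 had wide swings. SCD, the desaturase that makes oleic acid (GENCODE 29 on GRCh38, chr10:100347124-100364834, plus strand), was at 98.6, 288 and 1153 CPM in parental libraries 1, 2 and 3 and 86.8, 241 and 455 CPM in the parental knockout. In the resistant background it was at 1550, 67.4 and 78.8 CPM in the controls and 68.5, 56.0 and 33.7 CPM in the knockout. Its resistant libraries thus held both the highest level of the 12 and levels below every parental library, a 23.01-fold range within 1 group. INSIG1, which holds SCAP in the endoplasmic reticulum and is itself an SREBP target (chr7:155297776-155310235, plus strand), was at 18.8, 33.4 and 190.0 CPM in parental and 14.8, 41.3 and 117 CPM in parental knockout libraries. It was at 234, 11.8 and 18.3 CPM in resistant and 9.60, 14.3 and 16.8 CPM in resistant knockout libraries. As for SCD, library 3 of both parental-background groups and resistant library 1 were high, and control and knockout libraries overlapped in both backgrounds.

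Per kilobase of exon, SCD was the most abundant of the 30 in parental cells, with a mean of 95.8 CPM per kb, followed by ACLY (61.3), FADS1 (48.8) and FASN (48.0). SREBF2 (26.3) and SCAP (26.0) came next. ACAT2 (2.79), HSD17B7 (1.40) and ELOVL6 (1.11) were the lowest. The parental libraries of neighbours in this order overlapped throughout. The first place of SCD rested on parental library 3, at 215.0 CPM per kb against 18.4 and 53.8 in the other two. Over parental libraries 1 and 2 alone it averaged 36.1, below ACLY (51.0), FADS1 (40.4) and FASN (38.1). In the resistant knockout SCD averaged 9.84 CPM per kb, below ACLY at 49.9.

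Comparing resistant with parental cells asks how the set differs in the cisplatin-resistant line. Of the 30 genes 5 were higher and 1 lower (edgeR adjusted p under 0.05), against 28% of all genes tested in either direction, 15.2% higher and 12.8% lower, so the share of the 30 called was not above that of all genes. The sterol enzymes had a median log2 fold change of 0.79, with 15 of 18 above 0, and 4 of the 5 higher calls were among them. The control genes had a median of 0.18 and the fatty acid genes of -0.38, with 6 of 7 below 0, while the median over all genes was 0.02. Libraries of the groups did not overlap for 3 genes that were higher (23.7% of all genes) and 1 that was lower (21.8%). Without resistant library 1, 2 genes were higher and 5 lower, against 11% and 9.08% of all genes, and the medians were -0.14 for sterol enzymes, -0.43 for control genes and -1.17 for fatty acid genes.

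At the head of the pathway, ACAT2, the cytosolic thiolase that joins acetyl-CoA units (chr6:159760328-159779055, plus strand), was at 6.15, 10.3 and 19.5 CPM in parental and 77.4, 49.6 and 49.4 CPM in resistant libraries. In the knockouts it was at 7.82, 13.6 and 23.9 CPM in parental and 31.0, 27.6 and 63.5 CPM in resistant cells. All 6 resistant-background libraries were above all 6 parental-background ones, as in 13% of all genes tested. ACAT2 rose by 2.29 ± 0.50 (log2 ± SE, edgeR adjusted p = 0.00526) and by 2.04 without resistant library 1 (edgeR adjusted p = 0.0192). Its exons overlap those of SOD2 (26.5% of ACAT2 exon bases), SOD2-OT1 (33.9%) and TCP1 (9.2%) on the other strand, and the strand setting of the counting is not given in the sources used here, so reads of these genes cannot be told apart.

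HMGCS1, the next enzyme, was at 38.4, 44.2 and 115 CPM in parental and 117, 26.8 and 35.4 CPM in resistant libraries, which overlapped (log2 fold change -0.14 ± 0.63, edgeR adjusted p = 0.891). MVD, which makes isopentenyl pyrophosphate, was at 45.8, 53.4 and 64.7 CPM in parental and 174, 74.6 and 86.6 CPM in resistant libraries. These did not overlap, although resistant library 1 stood well above the other two. MVD rose by 1.03 ± 0.34 (edgeR adjusted p = 0.0388). MVK, PMVK, IDI1 and FDPS, which act around this step, had log2 fold changes of -0.49 to 0.48, none past the test.

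After squalene, HSD17B7, a ketoreductase of sterol demethylation, was at 4.42, 3.65 and 12.0 CPM in parental and 44.0, 16.0 and 11.8 CPM in resistant libraries, with 1 parental library above the lowest resistant one. It rose by 1.83 ± 0.58 (edgeR adjusted p = 0.033). HSD17B7 has a near-identical pseudogene, and how reads shared between them were counted is not given in the sources used here. DHCR7, the last reductase on the route to cholesterol, was at 12.1, 31.4 and 86.2 CPM in parental and 606, 75.9 and 107 CPM in resistant libraries, and rose by 2.60 ± 0.87 (edgeR adjusted p = 0.0404). Resistant library 1 stood far above the other two, and parental library 3 was above resistant library 2.

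The calls of MVD, HSD17B7 and DHCR7 were lost when single libraries were left out, and their fold changes fell most without resistant library 1. Without it their log2 fold changes were 0.56, 1.05 and 1.08 (edgeR adjusted p = 0.204, 0.194 and 0.314). Without parental library 1 they were 0.91, 1.60 and 2.15 (edgeR adjusted p = 0.121, 0.105 and 0.112), and without parental library 2 they were 1.02, 1.54 and 2.42 (edgeR adjusted p = 0.111, 0.122 and 0.13), the last leaving 3 of the 30 genes called. At nearly the same size, MVD also missed the threshold without resistant knockout library 1 (edgeR adjusted p = 0.0516), DHCR7 without resistant knockout library 2 (edgeR adjusted p = 0.0536), and both when only the groups compared were fitted (edgeR adjusted p = 0.0525 and 0.0558). The calls of ACAT2, STARD4 and EBP in this comparison held under every alternative run. LSS, another sterol enzyme, did not pass with all 12 libraries. It was at 31.1, 33.9 and 84.95 CPM in parental and 197, 77.0 and 106 CPM in resistant libraries. Among other runs, it passed with DESeq2 (1.36, adjusted p = 0.0319), the replicate block (1.5, edgeR adjusted p = 0.0258) and without parental library 3 (1.94, edgeR adjusted p = 0.0165). Without resistant library 1 alone, ACAT2 was the only sterol enzyme called higher. A run chosen after seeing the data left out library 3 of both parental-background groups as well. In it LSS, HSD17B7 and DHCR7 were also called higher, at 1.51, 1.79 and 2.08 (edgeR adjusted p = 0.00559, 0.0103 and 0.0269). MVD was not (0.71, edgeR adjusted p = 0.119). Over all genes that run called 2315 higher and 2014 lower.

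EBP, the sterol isomerase (chrX:48521158-48528716, plus strand), was lower. It was at 42.2, 12.8 and 10.6 CPM in parental and 5.02, 3.96 and 6.78 CPM in resistant libraries. The knockouts were at 55.7, 29.0 and 34.4 CPM in the parental and 4.70, 6.70 and 6.98 CPM in the resistant background. Every resistant-background library lay below every parental-background one, as in 10.1% of all genes. EBP fell by 2.05 ± 0.49 on the log2 scale (edgeR adjusted p = 0.00853), and its log2 fold change was -2.02 without resistant library 1 (edgeR adjusted p = 0.0307). In parental cells library 1, the lowest for 26 of 30 genes, was its highest.

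Among control and transport genes, STARD4, a carrier of cholesterol between membranes (chr5:111496033-111512590, minus strand), was at 15.8, 8.84 and 24.4 CPM in parental and 89.4, 36.0 and 48.0 CPM in resistant libraries. Its knockout libraries were at 8.17, 15.8 and 23.1 CPM in parental and 29.4, 30.2 and 25.2 CPM in resistant cells. Again all 6 resistant-background libraries were above all 6 parental-background ones, as in 13% of all genes tested. The margin was narrow, with the lowest at 25.2 CPM against a highest parental-background library at 24.4 CPM. STARD4 rose by 1.82 ± 0.45 (edgeR adjusted p = 0.0104) and by 1.36 without resistant library 1 (edgeR adjusted p = 0.0481).

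INSIG1, SREBF1, SREBF2 and SCAP did not pass the test. SREBF2 was at 98.1, 198 and 300.0 CPM in parental and 662, 136 and 171 CPM in resistant libraries (log2 fold change 0.70 ± 0.59, edgeR adjusted p = 0.402). SREBF1 was at 79.2, 144 and 279 CPM in parental and 386, 83.1 and 98.7 CPM in resistant libraries (0.18 ± 0.57, edgeR adjusted p = 0.848). SCAP, the escort of both, was at 132, 184 and 186 CPM in parental and 282, 122 and 126 CPM in resistant libraries (0.08 ± 0.33, edgeR adjusted p = 0.881). In all 3 genes resistant library 1 was above every parental library and resistant libraries 2 and 3 lay within or below the parental range. INSIG1 had a log2 fold change of 0.13 ± 1.06 (edgeR adjusted p = 0.942) and of -2.42 without resistant library 1 (edgeR adjusted p = 0.102). With library 3 of both parental-background groups, high for INSIG1, left out as well, its log2 fold change was -0.78 (edgeR adjusted p = 0.288).

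With edgeR and all 12 libraries no fatty acid gene passed the test. FASN, the fatty acid synthase, was at 267, 447 and 634 CPM in parental and 506, 199 and 332 CPM in resistant libraries, which overlapped (-0.38 ± 0.44, edgeR adjusted p = 0.547). ACACA, the carboxylase that makes malonyl-CoA, was at 152, 212 and 264 CPM in parental and 167, 91.1 and 94.5 CPM in resistant libraries (-0.83 ± 0.30, edgeR adjusted p = 0.052). Here 1 resistant library overlapped the parental range. ACACA passed with DESeq2 (adjusted p = 0.0368), when scaled by library size alone (edgeR adjusted p = 0.0438) and when genes needed 1 CPM in 3 libraries (edgeR adjusted p = 0.0441), at log2 fold changes of -0.78 to -0.84. FADS1, the delta-5 desaturase, was at 291, 535 and 669.6 CPM in parental and 547, 140.4 and 159.6 CPM in resistant libraries (-0.82 ± 0.52, edgeR adjusted p = 0.259). FADS2, its neighbour and delta-6 desaturase, named after its values were seen, was at 52.2, 106 and 283 and 184, 23.6 and 23.3 CPM (-0.93 ± 0.81, edgeR adjusted p = 0.417). In both, resistant library 1 lay in the parental range and the other resistant libraries below it.

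Without resistant library 1, 4 of the 7 fatty acid genes were lower in resistant cells. The log2 fold changes were -1.17 for ACACA (edgeR adjusted p = 0.0138), -1.73 for FADS1 (0.0183), -2.65 for FADS2 (0.0249) and -2.81 for SCD, the last at the threshold (0.05). In this comparison 5 of 30 genes were lower, EBP included, against 9.08% of all genes. Over both genotypes, the 5 remaining resistant-background libraries then lay below all 6 parental-background ones for these 4 genes and EBP (11.8% of all genes) and above them for ACAT2 and STARD4 (14.6%). The 4 fatty acid genes were named for being lower in part of the same libraries, so this is a description. The levels were 33.7 to 78.8 CPM against 86.8 to 1153 for SCD and 21.1 to 28.2 CPM against 34.7 to 283 for FADS2. A run chosen after seeing the data left out library 3 of both parental-background groups with resistant library 1. In it SCD had a log2 fold change of -1.40 and was not called (edgeR adjusted p = 0.102). ACACA, FADS1 and FADS2 were then at -0.96, -1.45 and -1.75 (edgeR adjusted p = 0.0354, 0.0422 and 0.0299). Over all genes that run called 2315 higher and 2014 lower. ACLY, which supplies cytosolic acetyl-CoA, and the elongase ELOVL6 did not pass the test in any of these fits. Exons of FADS1 (chr11:61799625-61829318, minus strand) and FADS2 (chr11:61792980-61867354, plus strand) overlap by 490 bases on opposite strands.

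**Figure D2:**
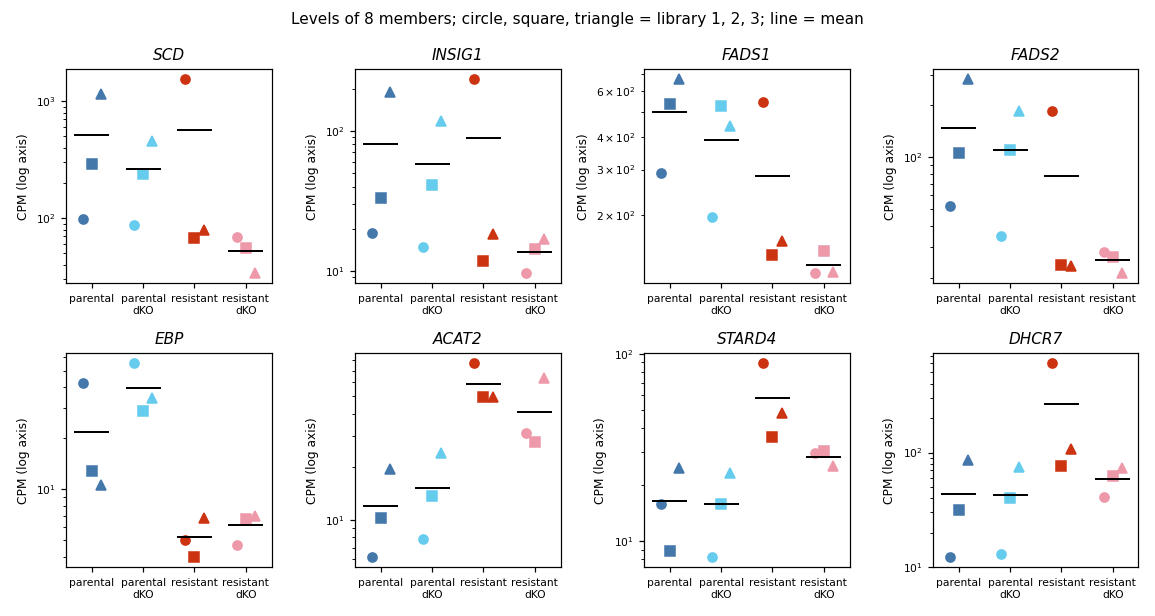
Points are CPM on a log axis in each library of the 4 groups for 8 genes, with the group mean as a line. In SCD, INSIG1, FADS1 and FADS2 the resistant library 1 point stands with or above the parental points while the other resistant points are low. In EBP, ACAT2 and STARD4 all resistant-background points are on 1 side of all parental-background points.

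Sterol and fatty acid genes were then compared within each library. For each library the mean log2 CPM of the 18 sterol enzymes and of the 7 fatty acid genes was taken relative to the parental mean. The sterol mean was -0.50, -0.11 and 0.61 in parental and 1.55, 0.05 and 0.21 in resistant libraries. The fatty acid mean was -0.78, -0.04 and 0.82 in parental and 0.58, -1.33 and -1.29 in resistant libraries. In the parental knockout libraries the sterol mean was -0.58, 0.17 and 0.71 and the fatty acid mean -0.88, -0.06 and 0.26. In these 3 groups the libraries therefore had the same order in both sets. In the resistant knockout they did not, with a sterol mean of -0.375, -0.22 and 0.04 and a fatty acid mean of -1.20, -1.22 and -1.33. Sterol minus fatty acid was 0.28, -0.08 and -0.20 in parental libraries and 0.97, 1.38 and 1.50 in resistant libraries. It was 0.30, 0.23 and 0.45 in the parental knockout and 0.83, 1.00 and 1.37 in the resistant knockout. In every group except the resistant knockout this difference varied less between libraries than either set did. All 6 resistant-background libraries, library 1 among them, were above all 6 parental-background libraries. The difference between the median log2 fold changes of the sets was 1.17 for resistant against parental cells, with a range of 1.03 to 1.49 when each library was left out. As the genes were chosen with these data known, no p is given for this score.

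**Figure D3:**
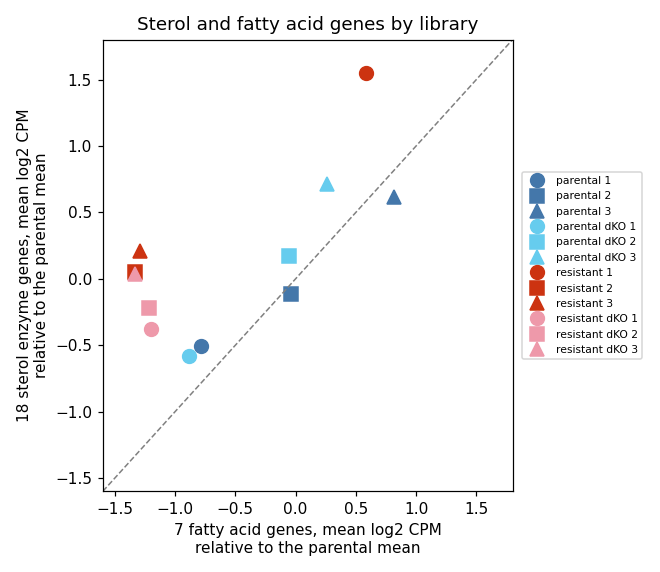
Each point is a library, with the mean log2 CPM of 7 fatty acid genes on the x axis and of 18 sterol enzyme genes on the y axis, both relative to the parental mean, and equality as a dashed line. Parental-background points lie near the line, and the 6 resistant-background points lie above it, 5 of them at the left and resistant library 1 at the upper right.

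The double knockouts give a comparison of the resistant and parental backgrounds that shares no library with the one above, although both come from 1 fit. The 2 comparisons are not independent. Same-numbered parental control and knockout libraries deviated together (correlations 0.658, 0.774 and 0.779). Among the knockouts no gene of the 30 was higher and 4 were lower (edgeR adjusted p under 0.05), against 13.6% and 10.2% of all genes. The medians were -0.25 for sterol enzymes, -0.83 for control genes and -0.996 for fatty acid genes, of which 7 of 7 were below 0, and the sterol minus fatty acid difference was 0.75. EBP fell, with a log2 fold change of -2.70 ± 0.50 (edgeR adjusted p = 0.00248). ACACA, at 144, 202 and 179.7 CPM in parental and 90.0, 85.1 and 88.4 CPM in resistant knockouts, fell, with a log2 fold change of -0.996 ± 0.297 (edgeR adjusted p = 0.0279). The groups did not overlap. FADS1, at 197, 527 and 442 and 119, 145 and 121 CPM, also without overlap, fell, with a log2 fold change of -1.59 ± 0.53 (edgeR adjusted p = 0.0442). IDI1, the isopentenyl pyrophosphate isomerase, was at 22.9, 46.0 and 62.2 CPM in parental and 11.4, 11.7 and 23.7 CPM in resistant knockouts (-1.49 ± 0.46, edgeR adjusted p = 0.0334), with 1 library of each group overlapping.

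Only the EBP call held in this comparison when each library was left out. Where the others were lost, their log2 fold changes were still -0.88 to -1.04 for ACACA, -1.31 to -1.70 for FADS1 and -1.15 to -1.45 for IDI1. Leaving out parental knockout library 2, resistant knockout library 1 or resistant knockout library 2 left 1 gene called. Over all genes these runs called 1717 higher and 1150 lower, 1638 and 1042, and 1686 and 993. Leaving out resistant library 1, which is in neither group but enters the shared fit, gave 7, with 2578 higher and 1933 lower over all genes. Libraries of the 2 groups did not overlap for 10 genes that were lower in resistant knockouts (16.9% of all genes), SCD, FADS2, HMGCS1 and SREBF1 among them, and for 2 that were higher, ACAT2 and STARD4 (20.3% of all genes). ACAT2 had a log2 fold change of 1.43 ± 0.49 with an edgeR adjusted p of 0.0504, and STARD4 of 0.85 ± 0.44 with 0.183.

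In parental cells the double knockout changed none of the 30 genes past the test (0% of all genes called by edgeR). With edgeR 0 of 30 had an unadjusted p under 0.05, against 3% of all genes, and DESeq2 called 0 of 30. Log2 fold changes ran from -0.98 (SCD) to 0.86 (EBP), with a median of 0.04 for sterol enzymes, -0.21 for control genes and -0.27 for fatty acid genes. Libraries of knockout and control overlapped for all 30 genes, while 3.2% of all genes were higher and 3.38% lower without overlap. SREBF2, at 98.1, 198 and 300.0 CPM in controls and 82.9, 252 and 242 CPM in knockouts, and FASN, at 267, 447 and 634 and 291, 492 and 577 CPM, had library 1 lowest in both groups and a wider spread among libraries than between the groups. With replicate numbers as a block within each background, edgeR again called 0 of 30, while over all genes it called 77 higher and 77 lower.

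In resistant cells, too, none of the 30 genes passed the test for the double knockout. With edgeR 0 of 30 were called, against 0.212% of all genes, and DESeq2 called 0. The filter on low counts bore on this. When every gene with at least 1 count was kept, edgeR called 11 of 30, all lower. Of the 17947 genes that passed the main filter, that run called 285 higher and 131 lower. The cause was not tested. Of the 30, 26 had a log2 fold change below 0 and 14 an unadjusted p under 0.05, all with negative values, against 7.95% of all genes in either direction. Medians were -0.78 for sterol enzymes, -1.41 for control genes and -0.42 for fatty acid genes, against 0.04 over all genes. This contrast shares the resistant control libraries with the first comparison, so high values in those libraries enter both.

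HSD17B7, with the smallest p, was at 44.0, 16.0 and 11.8 CPM in resistant controls and 6.63, 7.48 and 5.50 CPM in resistant knockouts, without overlap (-1.87 ± 0.58, edgeR adjusted p = 0.354). MSMO1, the methylsterol oxidase, was at 254, 28.0 and 45.0 CPM in controls and 19.6, 24.6 and 24.0 CPM in knockouts (-2.26 ± 0.75, edgeR adjusted p = 0.41). SCD had a log2 fold change of -3.42 ± 1.19 (edgeR adjusted p = 0.447). For MSMO1 the 2 lower controls lay closer to the knockouts than to resistant library 1, and for SCD they overlapped the knockouts. SREBF2, at 662, 136 and 171 and 110.1, 111 and 104 CPM (-1.58 ± 0.60, edgeR adjusted p = 0.504), and SCAP, at 282, 122 and 126 and 99.0, 102 and 93.3 CPM (-0.85 ± 0.33, edgeR adjusted p = 0.52), did not overlap. CYP51A1, the lanosterol demethylase, was at 289, 42.5 and 77.0 and 31.0, 40.9 and 59.0 CPM (-1.64 ± 0.63, edgeR adjusted p = 0.515), and another annotated gene on the same strand shares 79.4% of its exon bases. DHCR7, at 606, 75.9 and 107 and 40.9, 62.0 and 72.8 CPM, had a log2 fold change of -2.17 ± 0.85 (edgeR adjusted p = 0.531). SQLE, the squalene epoxidase, was at 267, 54.5 and 59.6 and 30.8, 49.8 and 54.5 CPM (-1.50 ± 0.62, edgeR adjusted p = 0.561) and overlapped by 1 library. In 8 of 30 genes every knockout library was below every control (7.17% of all genes), and in 0 of 30 above (8.02%).

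Without resistant library 1 these differences shrank. Then 0 of 30 genes had an unadjusted p under 0.05, against 5.85% of all genes, and the medians were -0.25 for sterol enzymes, -0.36 for control genes and 0.06 for fatty acid genes. SCD had a log2 fold change of -0.48 in place of -3.42 and INSIG1 of -0.15 in place of -2.70, while HSD17B7, at -1.09, then had the lowest value.

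**Figure D4:**
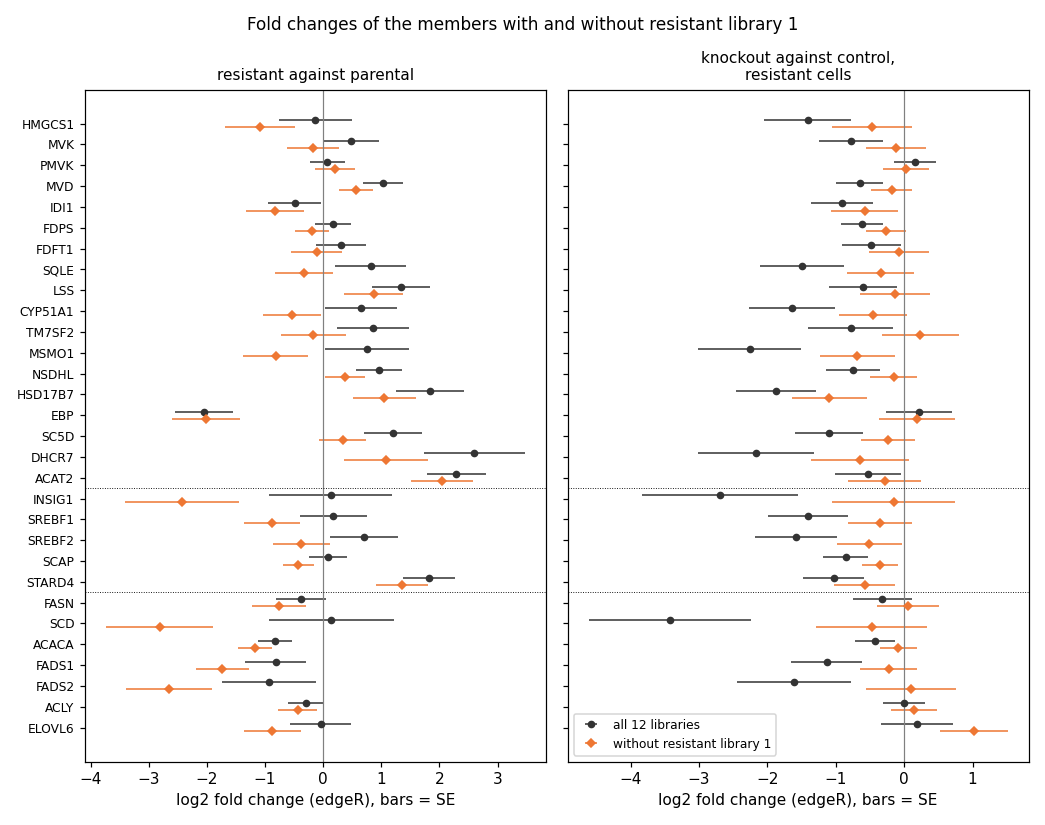
Points are edgeR log2 fold changes of the 30 genes and bars their SE, for resistant against parental cells (left) and for the knockout in resistant cells (right), with all 12 libraries (black) and without resistant library 1 (orange). Without it SCD moves from 0.14 to -2.81 on the left and from -3.42 to -0.48 on the right, whereas EBP and ACAT2 stay in place.

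The knockout effect in resistant cells minus that in parental cells was not past the test for any of the 30 genes (edgeR, 0.0279% of all genes called, DESeq2 0 of 30). When every gene with at least 1 count was kept, however, edgeR called 4 of 30. Of the 17947 genes that passed the main filter, that run called 114 higher and 46 lower. An unadjusted p under 0.05 was seen for 2 genes, HSD17B7 (-2.01 ± 0.81, edgeR adjusted p = 1) and FDPS (-1.06 ± 0.44, edgeR adjusted p = 1), against 3.78% of all genes. FDPS, the farnesyl pyrophosphate synthase, was at 46.3, 51.2 and 72.5 CPM in parental, 70.5, 67.4 and 93.4 in parental knockout, 91.8, 49.4 and 49.6 in resistant and 35.0, 35.0 and 54.2 in resistant knockout libraries. The median difference over the 30 genes was -0.98, and -0.21 without resistant library 1. Without that library 0 of 30 had an unadjusted p under 0.05 and the lowest of the differences was -1.23.

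Other genes of the pathway were followed in 5 lists of 81 genes. None was called in either knockout contrast or in their difference. Among 12 genes of SREBP processing and sterol sensing, 1 rose in resistant against parental cells and none fell, against 15.2% and 12.8% of all genes. It was MBTPS1, the site-1 protease that cleaves SREBPs, from 152, 184 and 214 to 1134, 408 and 294 CPM (1.74 ± 0.44, edgeR adjusted p = 0.0117). Its lowest resistant library was above all parental ones, and without resistant library 1 its log2 fold change was 0.94 (edgeR adjusted p = 0.0495). All 12 were highest in resistant library 1 within their group, as were 28 of the 30 genes. Among the knockouts MBTPS2, the site-2 protease (-1.18 ± 0.36, edgeR adjusted p = 0.03), and the lysosomal cholesterol exporter NPC1 (-1.27 ± 0.43, edgeR adjusted p = 0.0467) were lower in resistant cells.

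Of 11 tested genes of sterol export, storage and the sterol receptor LXR, 1 rose and 2 fell in resistant cells. The shares of all genes were 15.2% and 12.8%. Without resistant library 1, 0 of 12 rose and 2 fell, against 11% and 9.08% of all genes. OSBP, an oxysterol-binding carrier, went from 161, 214 and 172 to 94.3, 70.6 and 77.5 CPM (-1.17 ± 0.24, edgeR adjusted p = 0.00355). ABCA1, the cholesterol exporter, went from 152, 119 and 146 to 48.6, 29.1 and 6.25 CPM (-2.31 ± 0.70, edgeR adjusted p = 0.026), and neither overlapped between groups. GRAMD1A, a sterol transfer protein, rose by 0.86 ± 0.29 (edgeR adjusted p = 0.042), a call lost without resistant library 1 (edgeR adjusted p = 0.171). Among the knockouts the same 3 genes were called in the same directions, with SOAT1, the sterol esterifying enzyme, also lower (-0.81 ± 0.27, edgeR adjusted p = 0.0477). Of 11 tested genes of the isoprenoid branch, FNTA, a subunit of protein prenyltransferases, fell from 137, 164 and 106 to 48.1, 58.1 and 50.9 CPM (-1.37 ± 0.26, edgeR adjusted p = 0.00226) and was lower among the knockouts too, where PDSS2 was higher (0.83 ± 0.28, edgeR adjusted p = 0.0475).

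Elongases of polyunsaturated and very long chains, ELOVL2 and ELOVL4, were higher in resistant cells. Of 23 tested genes of other fatty acid synthesis and activation, 5 rose and 1 fell in resistant cells, against 15.2% and 12.8% of all genes. Without resistant library 1, 3 of 24 rose and 1 fell, against 11% and 9.08%. ELOVL2 was at 0.777, 2.18 and 2.23 CPM in parental and 66.7, 31.1 and 27.3 CPM in resistant libraries (4.59 ± 0.47, edgeR adjusted p = 3.03e-05). ELOVL4 was at 9.44, 10.6 and 11.8 and 75.7, 31.1 and 22.3 CPM (2.02 ± 0.41, edgeR adjusted p = 0.0033). Malic enzyme ME1, a source of NADPH, was at 25.0, 26.7 and 29.7 and 64.3, 57.4 and 63.6 CPM (1.19 ± 0.25, edgeR adjusted p = 0.00375). For these 3 genes the groups were clear of each other, and all 3 were called higher among the knockouts and without resistant library 1 as well. ACSL1, which activates fatty acids, was lower (-0.88 ± 0.23, edgeR adjusted p = 0.0136), and FADS3 was lower among the knockouts (-1.48 ± 0.33, edgeR adjusted p = 0.00721).

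Fatty acid oxidation, the opposing route, had 6 genes higher and 1 lower of 16 tested in resistant cells, against 15.2% and 12.8% of all genes, and 5 higher and 1 lower among the knockouts, against 13.6% and 10.2%. Without resistant library 1, 3 were higher and 1 lower in the first comparison, against 11% and 9.08%. ACAA2, a mitochondrial thiolase, was at 0.0597, 0.32 and 0.259 CPM in parental and 13.2, 26.6 and 19.2 CPM in resistant libraries (6.48 ± 0.50, edgeR adjusted p = 3.93e-06). ACADS, the short-chain acyl-CoA dehydrogenase, was at 6.21, 3.20 and 4.87 and 16.9, 17.7 and 20.6 CPM (1.95 ± 0.32, edgeR adjusted p = 0.000903), and HADHB, a subunit of the trifunctional protein, at 58.0, 64.2 and 67.9 and 107, 186 and 110.2 CPM (1.09 ± 0.27, edgeR adjusted p = 0.00918). HADHA, the other subunit, was called among the knockouts (1.17 ± 0.26, edgeR adjusted p = 0.00691). In none of these did resistant library 1 stand above both other resistant libraries, and without it ACAA2, ACADS and HADHB were still called. PPARGC1A, a coactivator of oxidative genes, was lower in both comparisons (-3.16 ± 0.80 and -3.44 ± 0.75, edgeR adjusted p = 0.0112 and 0.00574), at 3.26 CPM or less in every library.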

How the data were processed

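Libraries were prepared from poly(A) RNA with a directional kit, per the labels' protocols. Reads were trimmed with Trim Galore 0.6.10, aligned with STAR 2.7.10a to GRCh38 and counted with featureCounts 2.0.1, per the submitters' processing notes, and the authors deposited raw counts per gene in 2 copies that hold equal values. How strand, multi-mapping reads and the annotation were set is not given in the sources used here. In the table, 2 of the resistant control columns spell the group with 1 other letter and were matched by group and number. No per-sample column was left unmatched.

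The counts of 17947 genes that passed filterByExpr were fitted in edgeR 4.0.16 (R 4.3.3) by the robust quasi-likelihood method, with TMM scaling, a mean for each of the 4 groups over all 12 libraries, and 5 contrasts. P-values were adjusted over all genes (Benjamini-Hochberg, threshold 0.05), and the SE is the log2 fold change divided by the root of F. CPM uses TMM library sizes, and library means of log2 CPM a prior count of 2. The fit was tested on simulated data. Totals of 15659352 to 19706754 counts limit only the lowest genes, and the spread between libraries limits the rest. The 30 genes, the lists and the rule for named genes (any gene called, the smallest unadjusted p where none was, and fixed SREBP genes) were chosen with earlier results of these data known. Promoters are from RefSeq, exons and overlaps from GENCODE 29.

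Same-numbered control and knockout libraries deviated together in parental cells (correlations 0.658, 0.774 and 0.779), which counts as pairing, and not in every pair of resistant cells (0.569, -0.186 and 0.639). Alternatives were DESeq2 1.42.0, other scalings and filters, a replicate block, fits of single contrasts and leaving out libraries.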

Additional observations from a re-analysis of the deposited data

How the results depend on the processing

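With 3 libraries a group, 34 pairs of a gene and a contrast had an unadjusted edgeR p under 0.05 with all libraries. Only these were followed, and they gave 728 refitted values in all. None of these reversed, 643 stayed on their side of the threshold, 52 newly passed it and 33 no longer did. The other pairs are not in this count, and signs could change there. The sterol median for resistant against parental cells went from 0.788 to -0.141 without resistant library 1. The number of the 30 genes called ranged over leaving out single libraries from 3 to 7 for resistant against parental cells (6 with all) and from 1 to 7 among the knockouts (4 with all), and stayed at 0 for both knockout contrasts and their difference. The sterol minus fatty acid difference of medians ranged likewise from 1.03 to 1.49 (1.17 with all), 0.556 to 1.06 (0.748), 0.108 to 0.426 (0.305, knockout in parental cells), -0.438 to -0.237 (-0.358, knockout in resistant cells) and -0.817 to -0.518 (-0.672, difference of knockout effects).

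Keeping every gene with at least 1 count gave 11 genes, all lower, for the knockout in resistant cells, 11 for the resistant background among the knockouts and 4 for the difference of knockout effects, and the cause was not tested. Over the 17947 genes of the main filter, this setting called 285 higher and 131 lower, 2639 and 1964, and 114 and 46, in the same order. Among the knockouts DESeq2 called 8, with 2987 higher and 2387 lower over all genes. A fit of only those groups called 7, with 1893 higher and 1191 lower over all genes. Leaving out library 3 of both parental-background groups with resistant library 1, chosen after seeing the data, called 8 there, with 2932 higher and 2410 lower over all genes. The sterol minus fatty acid difference was then 1.06, and -0.415 for the difference of knockout effects. Leaving out only the libraries 3 gave 1.07 among the knockouts. Counting the control genes into the sets gave -0.102 for the knockout in resistant cells. The causes were not tested.

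With the replicate block over all libraries, edgeR called 7 genes for resistant against parental cells, 5 among the knockouts and 0 in both knockout contrasts and their difference. Over all genes it called 2995 higher and 2542 lower for resistant against parental cells, and 2802 and 1987 among the knockouts. The block within backgrounds, which the numbers support in parental cells only, called 0 there and 1 in resistant cells, HSD17B7 (-1.65, edgeR adjusted p = 0.00742). Over all genes this block called 608 higher and 331 lower in resistant cells, so the HSD17B7 call was 1 among many. In parental cells it called 77 higher and 77 lower over all genes, and changed no call among the genes described here.

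Library size alone moved the median of all genes among the knockouts from -0.00235 to 0.148 and the calls from 2445 higher and 1836 lower to 2928 and 1368. DESeq2 called 215 genes higher and 34 lower for the knockout in resistant cells, against 38 and 0 with edgeR.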
